A study of Mus musculus with 6 samples.

Results

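The genes flanking *Apc* on mouse chromosome 18 were described in adenomas of 2 mouse models that differ at *Apc* itself. They were the protein-coding genes whose start lies within 20 Mb of the start of *Apc* on either side and that had at least 10 counts in at least 3 of the 6 libraries. *Apc* and the symbols beginning with Pcdh, Nduf and Wnt were left out. This gave 162 genes, of 16536 genes tested and 34866 genes in the table, with 58 of them before *Apc* in chromosome coordinates and 104 after it. Positions are those of GENCODE M21 on GRCm38, where *Apc* lies on the plus strand of chromosome 18 from 34220924 to 34322552. The rule used expression level and position and not the difference between the genotypes, but 1 gene passed the count filter only through the libraries of 1 genotype. The genes were chosen with earlier results of these data known.

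*Apc* encodes the scaffold of the complex that marks β-catenin for destruction, and its loss in an intestinal epithelial cell starts an adenoma. Genes close together on a chromosome are inherited together, so that a mouse carrying a mutant *Apc* allele also carries the flanking DNA of the chromosome on which that allele arose or was engineered. When the remaining wild-type allele is lost from a tumour, its neighbours on that chromosome can be lost or replaced with it. Neighbouring genes otherwise need share no function, and those around *Apc* serve cell adhesion, transcription, translation, signalling and metabolism.

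One group carried the ApcMin allele (genotype ApcMin/+) and the other Apc1322T (genotype Apc1322T/+), both heterozygous in the germline, and the strain of both was C57BL/6J. The ApcMin product is a short truncation, while the Apc1322T product is longer and keeps β-catenin binding sites. Adenomas were excised from intestines at an age of 100 to 120 days, and each genotype had 3 libraries made with a strand-specific kit from 1 μg of total RNA. No tissue without an *Apc* mutation was analysed here, neither allele could be told from the wild type in counts per gene, and the flanking DNA was not examined for strain differences or copy number.

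Depth ranged from 23132328 to 33518145 estimated counts per library. On the scale of counts per library size (CPM), 3 counts were worth between 0.0895 and 0.130. Of 10 lists of cell type markers, the 6 epithelial genes summed to between 12086 and 14072 CPM in the Apc1322T libraries and to between 9921 and 11377 CPM in the ApcMin libraries. The 6 smooth muscle markers summed to 126.8 to 255.1 CPM against 276.1 to 401.5 CPM, and the 7 markers of stratified squamous epithelium to 6.82 to 8.88 CPM against 34.6 to 46.4 CPM, in the same order. The sums of the 5 fibroblast markers (597.1 to 1509 against 966.1 to 3246 CPM) and of the 5 macrophage markers (90.5 to 96.9 against 88.7 to 348.7 CPM) overlapped between the genotypes. Endothelial markers summed to 77.9 to 119.7 against 119.8 to 170.2 CPM. T cell markers summed to 7.85 to 23.7 against 9.51 to 14.9 CPM, B and plasma cell markers to 365.5 to 498.6 against 256.8 to 907.7 CPM, enteric neuron and glia markers to 6.84 to 8.69 against 8.90 to 11.8 CPM, and pancreas markers to 73.1 to 152.6 against 90.0 to 223.9 CPM. No marker was at 0 in all 6 libraries. In such bulk tissue, fewer cells of a type and less RNA per cell cannot be told apart.

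*Apc* itself, the reference point, had log2 CPM of 6.42, 6.41 and 6.47 in Apc1322T replicates 1, 2 and 3 and of 6.82, 6.80 and 6.97 in ApcMin replicates 1, 2 and 3. All 3 ApcMin libraries were above all 3 Apc1322T libraries. The log2 fold change was 0.43 (SE 0.08), with an adjusted p of 0.257 by edgeR's quasi-likelihood test and of 0.00936 by DESeq2. Fold changes are given throughout as ApcMin over Apc1322T, and adjusted p-values are those of edgeR over all genes tested unless DESeq2 is named.

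As a set, the flanking genes were close to the rest of the genome. By edgeR, 0 of the 162 genes passed an adjusted p under 0.01, as did 0% of all genes tested, and the smallest adjusted p among them was 0.257. At an unadjusted p under 0.05 there were 27 flanking genes (16.7%), beside 15.1% of all genes tested. Of these, 11 were higher in ApcMin, beside 7.49% of all genes, and 16 lower, beside 7.6%. The libraries of the genotypes did not overlap for 37 flanking genes (22.8%), 20 higher and 17 lower in ApcMin, beside 21% of all genes. DESeq2 placed 1 flanking gene under 0.01, *Hsd17b4* (0.617%, beside 1.11% of all genes), and limma-voom placed 0. Of the 162 genes 81 had a higher and 81 a lower estimate in ApcMin, and the median log2 fold change was -0.0017, beside 0.017 over all genes and medians of -0.032 to 0.069 on the 20 chromosomes. The size of the differences was also like that elsewhere, with a median absolute log2 fold change of 0.19 in the flanking genes and 0.21 in all genes. A difference of more than 2-fold was estimated for 10 flanking genes (6.17%), beside 6.28% of all genes. Over the 14900 protein-coding genes tested, the shares were 15.6% at an unadjusted p under 0.05, 21.4% without overlap and 5.44% past 2-fold. The remainder of chromosome 18, with 186 protein-coding genes tested, had a median of 0.031 and 31 genes (16.7%) at an unadjusted p under 0.05.

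The number at an unadjusted p under 0.05 depended on single libraries. It was 12 without Apc1322T replicate 2, 13 without Apc1322T replicate 3, 16 without ApcMin replicate 3, 17 without ApcMin replicate 1 and 39 without Apc1322T replicate 1, while over all genes tested it ran from 1180 to 4117 in the same fits.

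**Figure D1:**
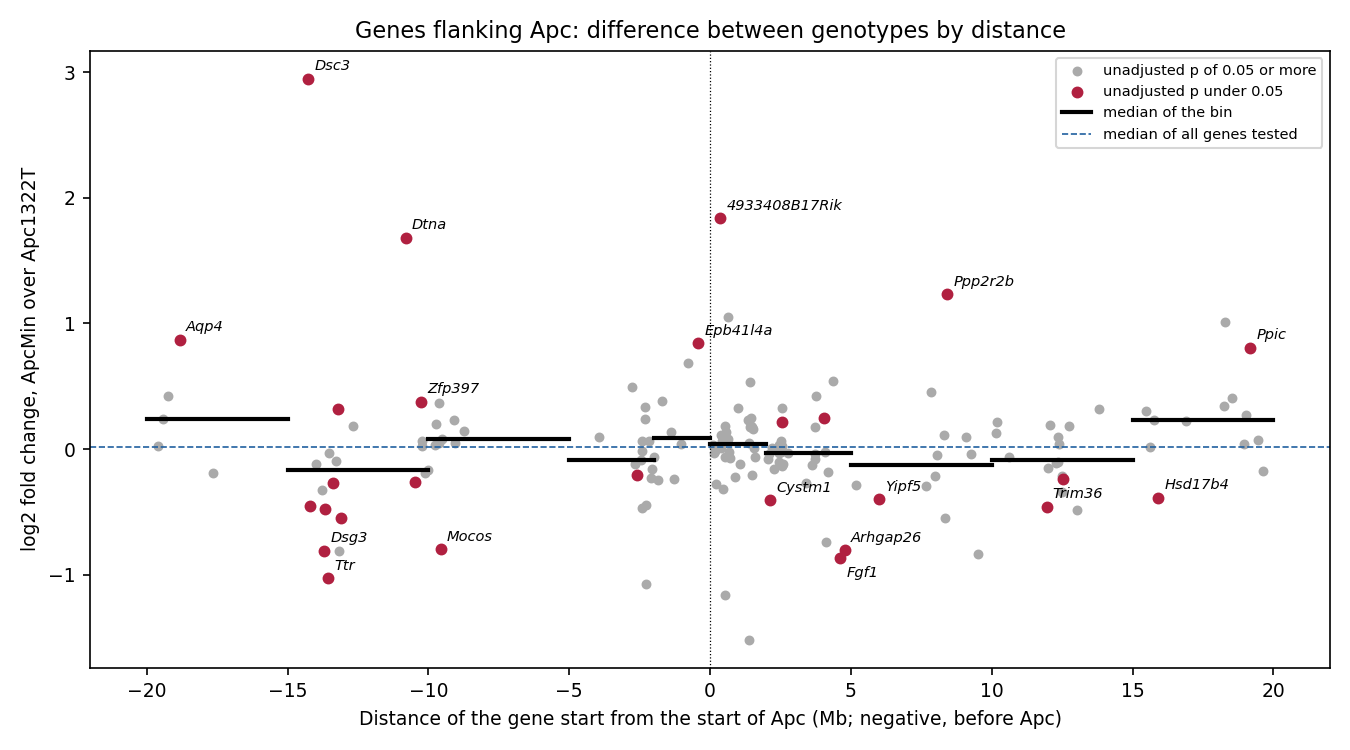
Log2 fold change (ApcMin over Apc1322T) of each of the 162 genes against the distance of its start from that of Apc in Mb, with genes before Apc at negative distances. Each point is 1 gene, coloured where its unadjusted p was under 0.05, and bars are medians of the genes of each class of distance on each side. Estimates lie on both sides of 0 at every distance, with 137 of the 162 within 0.5 of it.

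With distance from *Apc* the estimates showed no steady trend. Within 2 Mb, 24 genes had a higher and 16 a lower estimate in ApcMin, with a median log2 fold change of 0.045, and 2 of the 40 genes (5.0%) had an unadjusted p under 0.05. These 2 were *Epb41l4a* and *4933408B17Rik*. The latter reached the count filter only through the ApcMin libraries, where it was higher, so its place in these counts is not independent of its selection. The count at that p was 9 without Apc1322T replicate 1, 1 without Apc1322T replicate 3 or ApcMin replicate 3, and 4 with upper quartile scaling. Over all genes tested it was 4117 of 16851, 1472 of 17057, 1649 of 16709 and 2402 of 16536 in the same order, beside 2495 of 16536 in the main fit. Between 2 and 5 Mb, 16 were higher and 30 lower (median -0.034), with 6 of 46 at that p (13.0%). Between 5 and 10 Mb, 12 were higher and 9 lower (median 0.045), with 3 of 21 (14.3%), but with each library left out in turn this median was -0.056 to 0.0075, below 0 without ApcMin replicate 1 or 3. The genes 10 to 15 Mb away were lower more often than higher (23 against 14, median -0.11) and held 13 of 37 at that p (35.1%). The 18 genes 15 to 20 Mb away had 15 higher and 3 lower estimates (median 0.24) and 3 genes at that p (16.7%). The difference between distances was not tested, since neighbouring genes are not replicates of each other.

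The genes 10 to 15 Mb away were uneven between the sides of *Apc*. Of the 21 that lie before *Apc*, 11 had an unadjusted p under 0.05 (52.4%), with 4 higher and 7 lower in ApcMin. Of the 16 after *Apc*, 2 had (12.5%), both lower, beside 15.1% of all genes tested. The stretch before *Apc* holds the desmosomal cadherins described further on, 4 of which were among the 11 (*Dsc2*, *Dsc3*, *Dsg2* and *Dsg3*). The others were *Ttr*, *Trappc8*, *Rnf138*, *Garem1*, *Dtna*, *Mapre2* and *Zfp397*. The 13 genes at that p on both sides together became 3 without Apc1322T replicate 2, 6 without Apc1322T replicate 3, 6 without ApcMin replicate 1 and 7 without ApcMin replicate 3. In the same order, the counts over all genes tested were 1180 of 17059, 1472 of 17057, 1966 of 16731 and 1649 of 16709, beside 2495 of 16536 in the main fit. With upper quartile scaling in place of TMM, 8 were at that p, beside 2402 of 16536 over all genes tested.

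**Figure D2:**
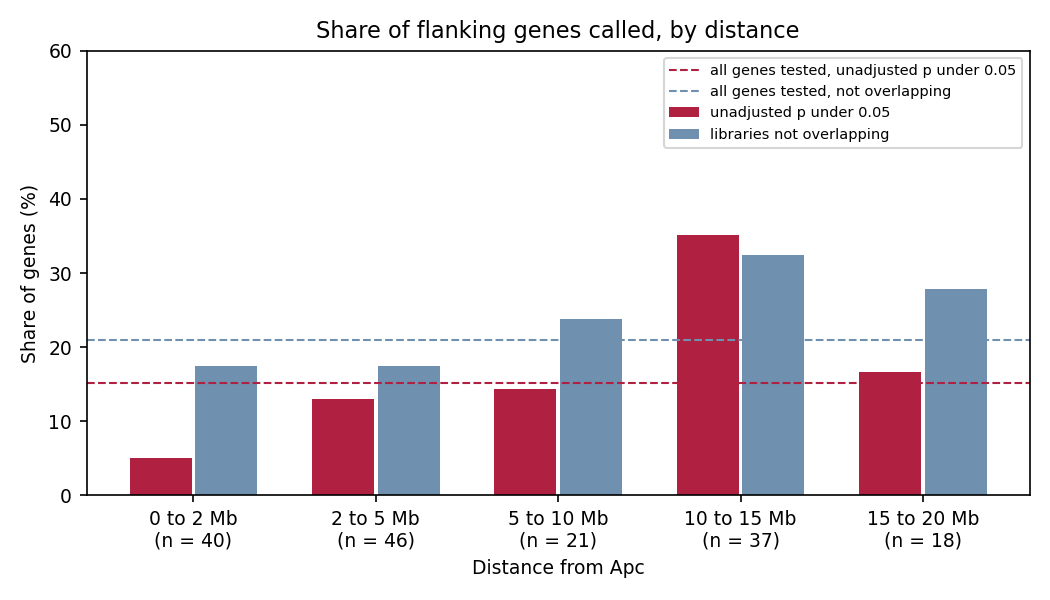
Share of flanking genes, in percent, at an unadjusted p under 0.05 and without overlap of the libraries, in 5 classes of distance from Apc in Mb, with the shares of all genes tested (15.1% and 21%) as horizontal lines. The class at 10 to 15 Mb stands highest on both measures (35.1% and 32.4%), and the class nearest Apc lowest on the first (5.0%).

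Taking the median over the genes of each class, every library was placed against the mean of the 6. In the class at 10 to 15 Mb the Apc1322T replicates stood at 0.011, 0.048 and 0.090 on the log2 scale and the ApcMin replicates at -0.094, -0.0051 and -0.013. These were without overlap, but Apc1322T replicate 1 was close to ApcMin replicate 2. At 15 to 20 Mb the values were 0.022, -0.17 and -0.098 against 0.11, 0.043 and 0.12, again without overlap but with Apc1322T replicate 1 close to ApcMin replicate 2. Within 2 Mb of *Apc* the values were 0.045, -0.052 and -0.081 against 0.034, 0.0062 and 0.13. The genotypes overlapped there, as they did at 2 to 5 Mb and at 5 to 10 Mb. Values without overlap were not confined to the 2 far classes. The rest of chromosome 18 had -0.00177, -0.0369 and 0.00837 against 0.0127, 0.0135 and 0.0252. All genes tested had -0.00703, -0.00417 and -0.00801 against -0.00103, -0.000457 and 0.0155.

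**Figure D3:**
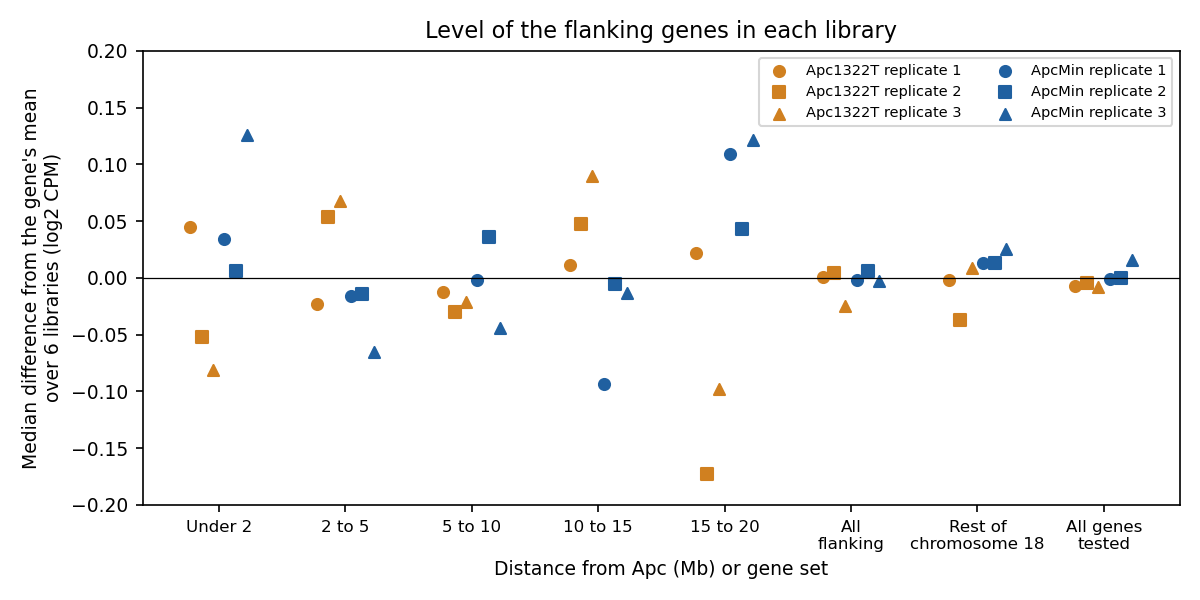
Median over the flanking genes, in each class of distance from Apc in Mb, of log2 CPM minus the gene's mean over the 6 libraries, with 1 point per library, beside all flanking genes, the rest of chromosome 18 and all genes tested. The genotypes overlap in the 3 classes nearest Apc and lie apart at 10 to 15 Mb, where ApcMin is lower, and at 15 to 20 Mb, where ApcMin is higher. They also lie apart, more narrowly, in the rest of chromosome 18 and in all genes tested, with ApcMin higher.

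Closest to *Apc* on the lower side lies *Epb41l4a*, which encodes a FERM-domain protein of the cell cortex. Its start is 0.42 Mb from that of *Apc* (chromosome 18, 33796327 to 34006966). It had log2 CPM of 2.35, 1.72 and 1.80 in the Apc1322T libraries and of 2.54, 3.02 and 2.87 in the ApcMin libraries, so that every ApcMin library was higher. The log2 fold change was 0.84 (SE 0.25, adjusted p 0.279). It is the 1 gene of the 6 nearest on that side at an unadjusted p under 0.05. Next to it, *Nrep*, a neuronal regeneration protein also made by fibroblasts, gave 4.68, 3.34 and 3.51 against 5.16, 4.26 and 4.39 and a log2 fold change of 0.69 (SE 0.43). Apc1322T replicate 1 lay above 2 of the ApcMin libraries for *Nrep*. *Stard4*, which carries cholesterol between membranes, gave 6.98, 7.23 and 7.53 against 7.31, 7.69 and 6.77 (log2 fold change 0.038, SE 0.25). *Camk4* (a calcium-dependent kinase), *Wdr36* (ribosomal RNA processing) and *Gypc* (a red cell membrane protein) had log2 fold changes of -0.23 (SE 0.47), 0.13 (SE 0.11) and 0.38 (SE 0.27), with overlap of the libraries for each.

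On the upper side the nearest gene is *Srp19*, which encodes a subunit of the signal recognition particle and starts at 34330847, beyond the 3′ end of *Apc*. It gave log2 CPM of 5.10, 5.27 and 5.22 in the Apc1322T libraries and of 5.24, 5.27 and 5.18 in the ApcMin libraries, a log2 fold change of 0.034 (SE 0.085). *Reep5*, a shaping protein of the endoplasmic reticulum, gave 6.56, 6.40 and 6.05 against 6.30, 6.17 and 6.48 (log2 fold change -0.031, SE 0.15). Both genes overlapped between the genotypes. *Pkd2l2*, of the polycystin channel family, had a log2 fold change of -0.012 (SE 0.23), and *Fam13b*, with which it shares part of its locus, one of -0.28 (SE 0.14). *Brd8*, a bromodomain subunit of a histone acetyltransferase complex, gave 5.53, 5.56 and 5.55 against 5.66, 5.66 and 5.66. The libraries stood apart, at a log2 fold change of 0.11 (SE 0.070, adjusted p 0.449). The sixth, *4933408B17Rik*, was near the limit of detection, with 1, 7 and 4 counts against 13, 22 and 22. Of all 162 genes, it was the 1 that reached the count filter through the libraries of a single genotype, so that its difference (log2 fold change 1.84, SE 0.72) is not independent of its selection.

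Of the 27 genes at an unadjusted p under 0.05, all kept their direction with each library left out in turn. In each of those 6 fits, 9 of the 27 stayed under that p. These were *Trim36*, *Hsd17b4*, *Cystm1*, *Yipf5*, *Mocos* and *Fgf1*, lower in ApcMin, and *Zfp397*, *Dtna* and *Epb41l4a*, higher in ApcMin. The 27 were picked at a small p on the same libraries, which favours keeping the direction. How often all genes at that p kept their direction or stayed under it was not computed. Neither count therefore sets the flanking genes apart from other genes. The libraries did not overlap for 20 of the 27, 10 in each direction. Over all genes tested, whatever their p, 11% were without overlap and higher and 9.96% without overlap and lower. These are not like shares, since picking genes at a small p favours a lack of overlap. The share without overlap among all genes at that p was not computed.

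*Hsd17b4*, the multifunctional enzyme of peroxisomal fatty acid β-oxidation, lies 15.9 Mb after *Apc* (50128201 to 50196269). Its log2 CPM was 7.73, 7.88 and 7.78 in the Apc1322T libraries and 7.40, 7.36 and 7.47 in the ApcMin libraries. The lowest Apc1322T library was above the highest ApcMin library, and the log2 fold change was -0.39 (SE 0.084, adjusted p 0.257), with a DESeq2 adjusted p of 0.00936. *Trim36*, a ubiquitin ligase of the tripartite motif family, gave 4.89, 5.10 and 5.01 against 4.55, 4.50 and 4.58 and had the smallest p of the flanking genes (log2 fold change -0.46, SE 0.092, adjusted p 0.257). For *Cystm1*, a small cysteine-rich membrane protein, the values were 8.82, 9.05 and 8.96 against 8.57, 8.47 and 8.58 (log2 fold change -0.40, SE 0.098). *Yipf5*, a protein of vesicles between endoplasmic reticulum and Golgi, gave 6.06, 6.33 and 6.13 against 5.73, 5.77 and 5.84 (log2 fold change -0.40, SE 0.097). These 4 genes each had a narrow spread within a genotype, with SDs of 0.040 to 0.14 on the log2 scale.

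*Mocos*, which sulfurates the molybdenum cofactor, and *Fgf1*, a fibroblast growth factor, differed more but with a wider spread. *Mocos* gave log2 CPM of 4.43, 5.27 and 5.15 against 4.20, 4.35 and 4.03 (log2 fold change -0.80, SE 0.22, adjusted p 0.279), with Apc1322T replicate 1 close to ApcMin. *Fgf1* gave 4.40, 3.78 and 4.03 against 2.73, 3.35 and 3.51 (log2 fold change -0.87, SE 0.25, adjusted p 0.279). By DESeq2, 6 of the 162 flanking genes had an adjusted p under 0.05, beside 473 of 17503 of all genes (2.7%). How many of the 473 were lower was not counted. The 6, all lower in ApcMin, were *Hsd17b4*, *Cystm1*, *Trim36*, *Mocos*, *Yipf5* and *Fgf1*. The others of the 10 lower genes without overlap were *Mapre2*, a microtubule plus-end protein (log2 fold change -0.26, SE 0.087), *Ap3s1*, a subunit of an adaptor complex for vesicle coats (-0.23, SE 0.081), *Sap130*, a subunit of the Sin3 corepressor (-0.21, SE 0.080), and the desmosomal *Dsg3*. The 6 epithelial markers were lower in ApcMin too, 3 of them at an unadjusted p under 0.05, and their part in these differences was not tested.

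Among the 10 higher genes without overlap, *Dtna*, a dystrobrevin of the dystrophin complex in muscle and nerve, gave log2 CPM of 0.55, -0.35 and 0.43 against 0.78, 2.02 and 2.43. ApcMin replicate 1 was closest to the Apc1322T libraries, and the log2 fold change was 1.68 (SE 0.50, adjusted p 0.279). *Ppp2r2b*, a regulatory subunit of protein phosphatase 2A, gave 2.20, 2.12 and 1.34 against 2.54, 3.81 and 2.79 (log2 fold change 1.24, SE 0.41). ApcMin replicate 2 was the highest, and without it the log2 fold change was 0.74. *Aqp4*, a water channel, was at a low level with 35, 20 and 41 counts against 80, 76 and 69 (log2 fold change 0.87, SE 0.33). *Dsc3* and *4933408B17Rik*, also among the 10, are described with the cadherins and with the nearest genes. *Zfp397*, a zinc finger protein, gave 4.55, 4.31 and 4.49 against 4.79, 4.77 and 4.93 (log2 fold change 0.38, SE 0.10, adjusted p 0.279). *Rnf138*, a ubiquitin ligase of DNA repair, had a log2 fold change of 0.32 (SE 0.11), *Dele1*, a mitochondrial stress messenger, of 0.25 (SE 0.086), and *Hars2*, the mitochondrial histidyl-tRNA synthetase, of 0.22 (SE 0.086). All 6 smooth muscle and all 5 fibroblast markers had higher estimates in ApcMin, 2 and 1 of them at an unadjusted p under 0.05, and their part in the values of *Dtna* and *Nrep* was not tested.

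**Figure D4:**
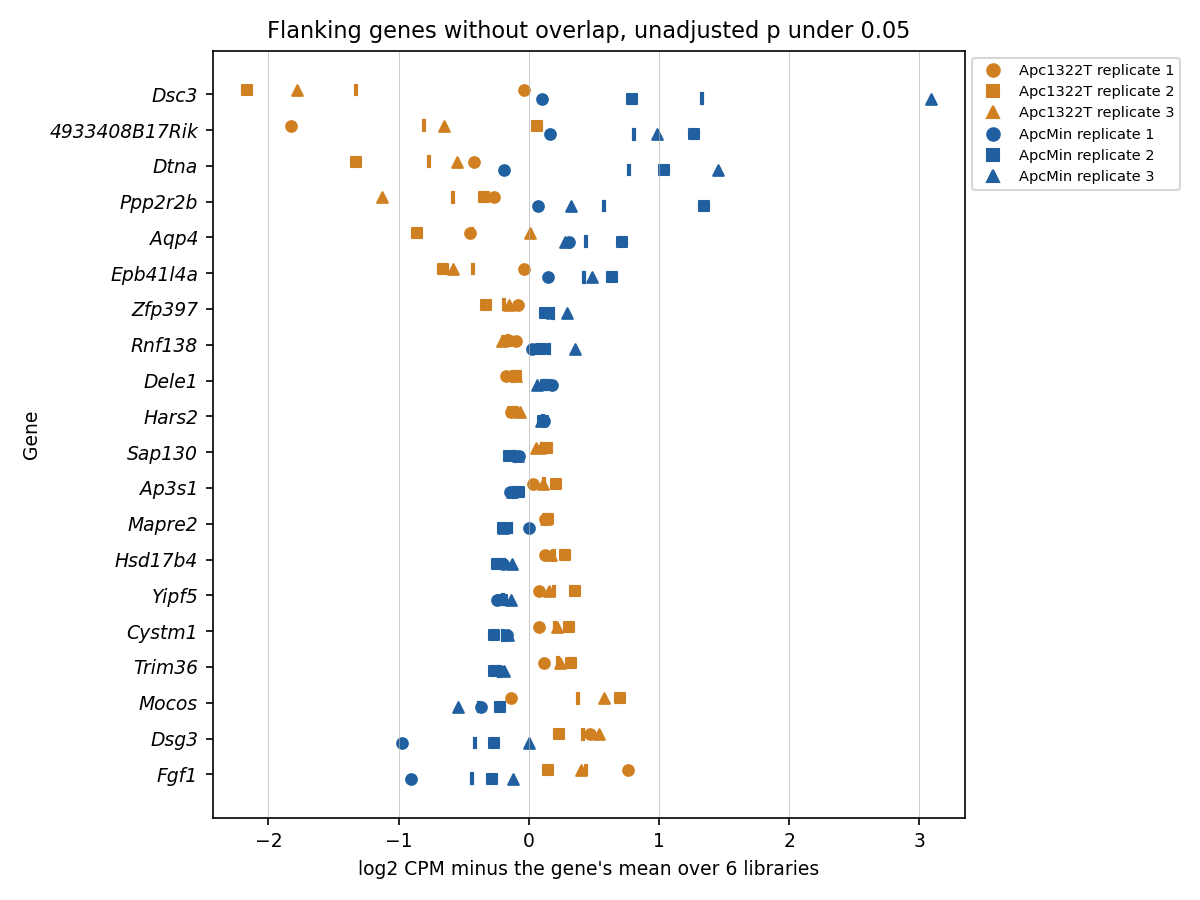
Log2 CPM minus the gene's mean over the 6 libraries for the 20 flanking genes whose libraries did not overlap at an unadjusted p under 0.05, with 1 point per library and a bar at the mean of each genotype. Dsc3 has the widest spread, with ApcMin replicate 3 far to the right, while Hars2, Sap130 and Hsd17b4 have narrow ones.

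Between 13 and 15 Mb before *Apc* lies the cluster of desmosomal cadherins, the adhesion proteins that join epithelial cells at desmosomes. *Dsg2* and *Dsc2* are the forms of simple epithelia such as the intestine, and *Dsc3*, *Dsg3* and the Dsg1 genes are forms of stratified squamous epithelia. With the classical cadherin *Cdh2*, which lies outside this cluster, 7 cadherins had enough counts. Of these 7, 3 were lower and 1 higher in ApcMin at an unadjusted p under 0.05 (57.1%, beside 15.1% of all genes). The median log2 fold change of the 7 was -0.32. *Dsg2* gave log2 CPM of 8.74, 8.99 and 9.22 against 8.34, 8.80 and 8.37 (log2 fold change -0.48, SE 0.18, adjusted p 0.311), and *Dsc2* gave 8.11, 8.48 and 8.53 against 7.87, 8.13 and 7.79 (log2 fold change -0.45, SE 0.15, adjusted p 0.288). In both, ApcMin replicate 2 was above Apc1322T replicate 1. Levels per exon length were 53.1 RPKM (CPM per kilobase of exon) for *Dsg2* and 54.8 RPKM for *Dsc2*, against 1.63 RPKM for *Dsc3* and 0.312 RPKM for *Dsg3*.

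The squamous forms differed in direction. *Dsc3* had 109, 18 and 26 counts in the Apc1322T libraries and 157, 182 and 1119 counts in the ApcMin libraries. In log2 CPM this was 2.03, -0.11 and 0.28 against 2.16, 2.85 and 5.15, with ApcMin replicate 3 far above the others and Apc1322T replicate 1 close to ApcMin replicate 1. The log2 fold change of 2.95 (SE 1.00, adjusted p 0.300) was the largest of the flanking genes and was 1.51 without ApcMin replicate 3. *Dsg3*, at 78, 51 and 69 counts against 36, 43 and 65, was lower in ApcMin (log2 fold change -0.81, SE 0.33, adjusted p 0.321). *Dsg1c* and *Dsg4* were at 5 to 24 counts per library, with log2 fold changes of -0.12 (SE 0.51) and -0.32 (SE 0.54). All 5 of the squamous markers tested had higher estimates in ApcMin, 3 of them at an unadjusted p under 0.05, and their part in the values of *Dsc3* and *Dsg3* was not tested. *Cdh2*, a classical cadherin of nerve and mesenchyme that lies 17.6 Mb before *Apc*, had a log2 fold change of -0.19 (SE 0.31).

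**Figure D5:**
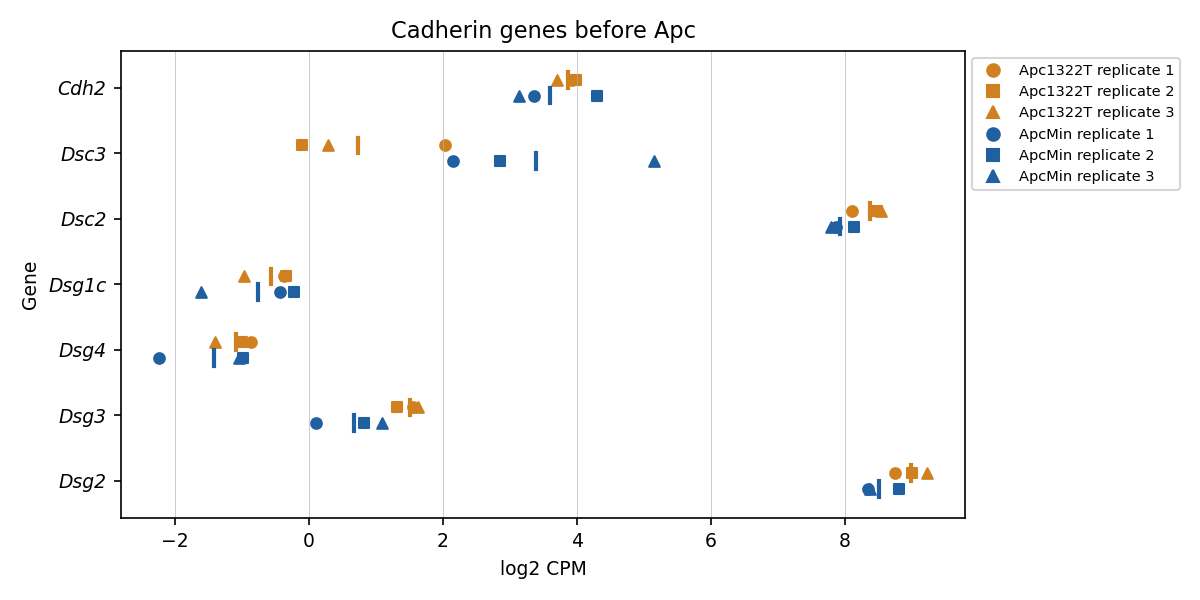
Log2 CPM of the 7 cadherin genes before Apc in each of the 6 libraries, with a bar at the mean of each genotype. Dsg2 and Dsc2 are lower in ApcMin with some overlap, and Dsc3 is higher with ApcMin replicate 3 at 5.15.

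The genes of the region were also grouped by what their products do, and each count of genes at an unadjusted p under 0.05 is to be read beside the 15.1% of all genes tested. Of the 24 genes of transcription, chromatin and RNA processing, 1 was higher at that p (*Zfp397*, 4.17% of the list) and 0 lower by edgeR, with a median log2 fold change of 0.035. *Ino80c*, a chromatin remodelling subunit, had a log2 fold change of -0.19 (SE 0.083) without overlap, and *Matr3*, a nuclear matrix protein of higher level, one of 0.23 (SE 0.13). Among 10 genes of translation, mRNA decay and tRNA charging, 1 was higher (*Hars2*, 10%), with a median of 0.012. *Etf1*, the translation release factor, gave -0.022 (SE 0.10), and *Srfbp1* 0.34 (SE 0.15) without overlap. Among 9 cell division genes, 1 was lower (*Mapre2*, 11.1%), and all lay within 0.5 of 0, with *Kif20a*, a kinesin of cytokinesis, at 0.012 and *Cdc25c*, a phosphatase that starts mitosis, at -0.059.

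Signalling and adhesion partners were mixed. Of 17 genes of growth factor, kinase and nuclear receptor signalling, 1 was higher (*Ppp2r2b*) and 3 lower (*Fgf1*, *Arhgap26* and the EGF receptor adaptor *Garem1*) at an unadjusted p under 0.05 (23.5%), with a median of -0.17 and a median absolute log2 fold change of 0.28, beside 0.21 over all genes. *Arhgap26* lies beside *Fgf1*, and a second annotated gene of the same name overlaps both. Its log2 CPM was 3.80, 4.75 and 4.93 against 3.85, 4.02 and 3.38 (log2 fold change -0.80, SE 0.32), with overlap. Of 6 genes linked to β-catenin or Wnt signalling, 1 was higher (*Epb41l4a*, 16.7%), with a median of -0.12. *Ctnna1*, the α-catenin that ties cadherins and β-catenin to actin, lies 0.90 Mb after *Apc* and gave 9.27, 9.52 and 9.53 against 9.20, 9.24 and 9.22. The Apc1322T libraries were all higher, at a log2 fold change of -0.22 (SE 0.11, adjusted p 0.364). *Mcc*, which is mutated in some colorectal cancers, lies 10.2 Mb after it and had a log2 fold change of 0.22 (SE 0.16) with overlap.

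Of 17 genes of membrane traffic, endoplasmic reticulum and autophagy, 3 were lower (*Yipf5*, *Ap3s1* and *Trappc8*, a vesicle tethering subunit) and 0 higher at an unadjusted p under 0.05 by edgeR (17.6%), with a median of -0.031. *Hspa9*, the mitochondrial HSP70 chaperone, was at 100.6 RPKM and had a log2 fold change of -0.071 (SE 0.12). Of 15 genes of metabolism, transport and secretion, 2 were higher (*Aqp4* and *Ppic*) and 3 lower (*Hsd17b4*, *Mocos* and *Ttr*) at that p (33.3%, beside 15.1% of all genes), with a median of -0.23 and a median absolute log2 fold change of 0.44. *Ppic*, a cyclophilin of the secretory pathway, gave log2 CPM of 4.84, 4.20 and 3.99 against 5.60, 4.63 and 5.20 (log2 fold change 0.81, SE 0.31). Apc1322T replicate 1 lay above ApcMin replicate 2. The transport protein *Ttr* gave 5.40, 4.99 and 4.53 against 3.48, 3.39 and 4.71 (log2 fold change -1.03, SE 0.42), also with overlap. The brush border protease *Mep1b* had the highest level of all at 138.3 RPKM, and its libraries spread over 7.66 to 9.32 in Apc1322T and 6.77 to 8.54 in ApcMin (log2 fold change -0.81, SE 0.58).

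Of 6 genes of innate immunity, 0 had an unadjusted p under 0.05 by edgeR, with a median of 0.13, and *Tnfaip8*, an inhibitor of cell death, and *Tmed7*, a cargo receptor of the early secretory pathway, had log2 fold changes of 0.23 (SE 0.14) and -0.10 (SE 0.076). Of 8 cytoskeletal and neuronal genes, 1 was higher (*Dtna*, 12.5%), with a median of 0.33. *Spink1*, a secreted trypsin inhibitor that the list also holds, was at 137.1 RPKM and spread over 5.46 to 7.56 log2 CPM in Apc1322T and 5.01 to 6.79 in ApcMin (log2 fold change -0.83, SE 0.63).

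Neighbours on the chromosome shared the sign of their estimates about as often as elsewhere. Of 161 pairs of adjacent flanking genes, 90 had estimates of the same sign (55.9%), beside 53.3% of 14878 adjacent pairs of protein-coding genes over the genome. For 7 pairs of flanking genes in opposite orientation with 5′ ends within 1000 bases, 4 had the same sign (57.1%), beside 54.9% of 942 such pairs. *Atg12* and *Ap3s1*, of autophagy and of vesicle coats, were such a pair with log2 fold changes of -0.22 (SE 0.099) and -0.23 (SE 0.081). *Hars* and *Hars2*, the cytoplasmic and mitochondrial histidyl-tRNA synthetases, were another, with -0.13 (SE 0.10) and 0.22 (SE 0.086). Of the 162 genes 44 overlap another protein-coding gene, *Hars* and *Hars2* among them. Since the strand setting of the counting is not given in the sources used here, such counts are less certain.

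Members near the limits of the selection were as follows. The last genes inside the window were *Ss18*, 19.6 Mb before *Apc*, with 1630 to 2257 counts in the Apc1322T libraries and 2085 to 2794 in the ApcMin libraries, and *Csnk1g3*, 19.6 Mb after it, with 1595 to 1787 and 1662 to 2200. The first genes outside were *Zfp521* at 20.5 Mb (11 to 28 against 18 to 78 counts) and *Zfp608* at 20.7 Mb (364 to 583 against 437 to 578 counts). Of the 213 protein-coding genes eligible by position and symbol, 51 failed the count filter, 22 of them at 0 in all 6 libraries, which allows up to 0.130 CPM. The 3 genes that passed in exactly 3 libraries were *Dsg4*, *4933408B17Rik* and *Gm3550*, and the 3 that failed with 2 libraries were *Asxl3*, *E230025N22Rik* and *Kcnn2*, at 0 to 16 counts. Of the members, 150 had at least 10 counts in all 6 libraries.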

How the data were processed

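RNA from adenomas of 3 ApcMin and 3 Apc1322T libraries was sequenced as single-end reads of 50 bases. Per gene, the authors deposited estimated counts that Salmon gave on GRCm38 transcripts, and these are not scaled for library size or gene length. A read that fits several transcripts is divided between them, so that genes with near copies (*Eno1b*, *Eif3j2*, *Eif1a*, *Gm6665*, *Gm37013*) are uncertain. The annotation release and strand setting are not given in the sources used here. Of 34866 genes, 34582 were matched by identifier to GENCODE M21.

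Whole-number rounding of the estimated counts was followed by a filter with filterByExpr (minimum count 10, minimum total 15) and TMM scaling. The genotypes were compared in R 4.3.3 with edgeR 4.0.16 (glmQLFit with robust estimation, glmQLFTest), with Benjamini-Hochberg adjustment over all 16536 genes and the study's threshold of 0.01. The study applied that threshold to DESeq2, which is an alternative here. SE is the absolute log2 fold change over the square root of F. Log2 CPM used a prior count of 2, and RPKM the union exon length of GENCODE M21. DESeq2 1.42.0, limma 3.58.1 (voom), other scalings and filters, windows of 10 and 5 Mb, a replicate block and each library left out were alternatives. The procedures were tested on simulated counts. Depth was 23132328 to 33518145 counts per library, and for most genes the spread between libraries sets the precision. No libraries were copies of each other. The labels do not say that replicates were separate mice, so p-values measure the spread between these samples. By the study's methods, a sample typically pooled 2 to 3 RNA extractions of the same mouse. With 3 against 3, an exact permutation test of one gene cannot go below p = 0.1, and none is reported.

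The flanking genes and functional lists were chosen with earlier results of these data known. Genes named were *Apc*, the 6 nearest on each side, those of smallest p in each direction (at most 12) among those at an unadjusted p under 0.05 whose libraries did not overlap, the 2 of smallest p and the 1 of highest mean log2 CPM in each list, and genes at the edges of the rule. *Cdh2*, *Dsg1c*, *Ttr*, *Ppic*, *Mcc*, *Trappc8*, *Arhgap26*, *Garem1*, *Atg12*, *Hars*, *Kif20a* and *Cdc25c* were added after their values were seen. Sequences of chromosome 18 are not reported here.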

Additional observations from a re-analysis of the deposited data

How the results depend on the processing

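With the DESeq2 Wald test, 194 genes passed an adjusted p under 0.01, 1 of them flanking *Apc*, and the median log2 fold change of the flanking genes was -0.018. Without a filter beyond 1 count, 1 gene of the genome passed, and at an adjusted p under 0.05 also 1, which does not flank *Apc*. Upper quartile scaling gave medians of 0.056 for all flanking genes, 0.025 at 2 to 5 Mb, 0.10 at 5 to 10 Mb and -0.052 at 10 to 15 Mb, so that the medians of all flanking genes and at 2 to 5 Mb changed sign. It gave 4 genes at an unadjusted p under 0.05 within 2 Mb and 8 at 10 to 15 Mb. Over all genes tested, 2402 of 16536 were at that p with this scaling. The counts by distance under other settings were chosen after seeing the data. Within 2 Mb, 1 gene was at that p with at least 1 CPM required in 3 libraries and 4 with the replicate block. Over all genes tested, the counts were 2300 of 14778 and 2113 of 16536 in the same order. A window of 10 Mb held 11 of 107 genes at that p and 20 without overlap, and a window of 5 Mb 8 of 86 and 15, with a median of -0.014. Over all genes tested, 15.1% were at that p and 21% without overlap. Leaving out each library in turn gave 0 to 1 genes past the adjusted threshold over all genes tested and 1180 to 4117 at an unadjusted p under 0.05. Among the flanking genes it gave 12 to 39 at that p, 42 to 85 without overlap (85 without Apc1322T replicate 1) and medians of -0.029 to 0.0050. With a library fewer, a lack of overlap is easier to reach for any gene. The share without overlap over all genes was not computed in these fits, so these counts do not set the flanking genes apart. By distance, the medians were -0.086 to -0.017 (2 to 5 Mb), -0.056 to 0.0075 (5 to 10 Mb, which changed sign without ApcMin replicate 1 or 3), -0.17 to -0.10 (10 to 15 Mb) and 0.13 to 0.29 (15 to 20 Mb, the lowest without ApcMin replicate 1). The counts at that p were 1 to 9 within 2 Mb (9 without Apc1322T replicate 1, 1 without Apc1322T replicate 3 or ApcMin replicate 3) and 3 to 12 at 10 to 15 Mb. The cause of these changes was not tested, beyond the smaller number of samples or genes. Of 45 named genes and *Apc*, 38 kept their direction in every fit. The 8 that did not had main estimates within 0.25 of 0. *Reep5* gave 0.024, *Pkd2l2* 0.048 and *Etf1* 0.035 under upper quartile scaling, *Pkd2l2* 0.0012 with limma-voom and *Ube2d2a* -0.0041 with DESeq2. With a library left out they ran over -0.20 to 0.25 (*Stard4*), -0.63 to 0.074 (*Camk4*), -0.0083 to 0.073 (*Srp19*), -0.16 to 0.089 (*Reep5*), -0.13 to 0.12 (*Pkd2l2*), -0.054 to 0.043 (*Ube2d2a*), -0.11 to 0.035 (*Etf1*) and -0.14 to 0.0042 (*Hspa9*). *Hsd17b4* and *Apc* passed an adjusted p under 0.01 with DESeq2 alone (log2 fold changes of -0.40 and 0.42). The replicate numbers are shared by both genotypes, but same-numbered libraries correlated at -0.014, 0.16 and -0.29 and not each best with its own number. They were therefore not treated as pairs in the main fit. With so few libraries, these correlations cannot exclude that same-numbered libraries shared a batch. With the replicate block, 21 flanking genes and 2113 of all genes had an unadjusted p under 0.05, 0 passed the adjusted threshold, and the median of the flanking genes was -0.0014.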
